A study of Mus musculus with 4 samples.

Results

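Cycling pre-B cells are the dividing, immature B cells of the bone marrow, here caught in tissue dissected from around the injured growth plate of the mouse femur. They were chosen by transcripts: a barcode had 200 genes or more and no more than 20% of its UMIs (unique molecular identifiers, each standing for 1 captured RNA molecule) from mitochondrial genes, at least 1 UMI of Ebf1, at least 1 of Pax5, Vpreb3 and Cecr2 detected, no Dntt UMI, at least 2 UMIs of Mki67 and Top2a together, and 0 UMIs of Ly6g and Csf1r. Of 21014 growth plate barcodes that passed the quality limits, 1202 met this rule, and the 4 libraries of the series held 27654 barcodes before those limits. The 1NMPP1 library held 687 of these cells and the vehicle library 515.

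The study counted RNA of single cells in the injured growth plate region and in lumbar dorsal root ganglia, which hold the cell bodies of sensory neurons, 7 days after injury. All mice carried the same genotype, vehicle controls included: an allele of a receptor kinase that the small molecule 1NMPP1 can inhibit. The 1NMPP1 animals were injected at 17 µg/g body weight 48 h and 2 h before surgery, from a 5 mM solution, and then drank water with 40 µM 1NMPP1 and 1% PBS-Tween. Controls received a vehicle with DMSO. Each group has 1 library per tissue and the labels do not give the number of animals, their age or their sex, so the differences below were not checked in replicates and carry no p-value. Intervals are exact, at 95%, and cover counting error only. The growth plate tissue was digested whole and not described as sorted, so marrow cells came along with cartilage and bone.

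The 1NMPP1 members had a median of 13350 UMIs and 3966 genes, and the vehicle members 11112 UMIs and 3626 genes. Their summed depth was 12140204 and 7802862 UMIs. A level is given as CPM, the UMIs of a gene per 1000000 UMIs of all members of a library, and a difference as the log2 ratio of 1NMPP1 over vehicle. The libraries also differed in the sex of their cells. By the presence of Y-linked or Xist transcripts, 26.6% of 1NMPP1 members and 52.4% of vehicle members were called male, and 56.0% and 31.3% were called female. The growth plate libraries shared 40 cell barcodes by sequence, none of them a member in both.

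In the marrow, a progenitor that has joined a functional heavy chain gene displays the heavy chain with a surrogate light chain, built by VpreB and λ5 (Igll1), as the pre-B cell receptor. Together with interleukin 7 this receptor drives a burst of divisions of so-called large pre-B cells, in which the Rag recombinase is held low. The cells then leave the cycle, become small pre-B cells, switch Rag on again and rearrange their light chain genes.

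The markers fit both words of the name. Ebf1, a founding transcription factor of B cells, stood at 4237 CPM in 1NMPP1 members and 4853 CPM in vehicle members, and Pax5, which commits cells to the B lineage, at 575 and 636 CPM. These genes, with Vpreb3, Mki67 and Top2a, chose the cells, so their levels are a description. Cd79a, a signalling subunit of the B cell receptor that the rule did not use, was detected in 92.2% (89.8 to 94.2) of 1NMPP1 members and 93.8% (91.2 to 95.8) of vehicle members once each cell was thinned to 5000 UMIs. In Ly6g-positive neutrophil barcodes without Ebf1, which should lack it, the share was 3.72% and 2.24% at that depth. Dntt, which marks the earlier pro-B stage, was at 0 by the rule.

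The median member had 30 UMIs of Mki67 and Top2a in the 1NMPP1 library and 25 in the vehicle library. Only 43 and 39 members stood at the limit of 2 UMIs, and 173 and 141 barcodes that otherwise met the rule lay just outside with 1 UMI. Just inside, Rag1 stood at 272 CPM and Igkc at 2587 CPM in 1NMPP1 cells, and at 192 and 1758 CPM in vehicle cells. Just outside, Rag1 stood at 347 CPM and Igkc at 5543 CPM in 1NMPP1 cells, and at 229 and 6743 CPM in vehicle cells. Mcm5, a helicase subunit of DNA replication, stood at 85.8 CPM inside and 17.1 CPM outside in 1NMPP1 cells, and at 96.2 and 43.7 CPM in vehicle cells.

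Promoters of the 2 gene groups on which the description turns, the G2/M genes that mark these cells and the interferon response genes, are shown here, each as the 250 bases before the start of the gene from RefSeq (GRCm38.p6), 5′ to 3′ on the strand of the gene. Capitals in the promoters of Cdk1 (the mitotic kinase; chr10:69352913-69353162, minus strand) and Ube2c (the ubiquitin carrier of the anaphase complex; chr2:164769679-164769928, plus strand) mark CCAAT or ATTGG and TTTGAA or TTCAAA, the letters of the CCAAT box and of the element called CHR, on either strand. Capitals in those of Isg15 (a ubiquitin-like protein; chr4:156200819-156201068, minus strand) and Bst2 (tetherin, which holds viruses at the membrane; chr8:71537473-71537722, minus strand) mark GAAANNGAAA or TTTCNNTTTC, a pair of GAAA motifs as found in the interferon-stimulated response element, and overlapping matches run together.
Cdk1: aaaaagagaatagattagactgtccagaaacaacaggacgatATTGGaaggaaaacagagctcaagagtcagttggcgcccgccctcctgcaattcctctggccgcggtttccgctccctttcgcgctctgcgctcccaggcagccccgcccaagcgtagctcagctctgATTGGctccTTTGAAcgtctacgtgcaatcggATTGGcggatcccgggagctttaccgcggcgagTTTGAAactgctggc
Ube2c: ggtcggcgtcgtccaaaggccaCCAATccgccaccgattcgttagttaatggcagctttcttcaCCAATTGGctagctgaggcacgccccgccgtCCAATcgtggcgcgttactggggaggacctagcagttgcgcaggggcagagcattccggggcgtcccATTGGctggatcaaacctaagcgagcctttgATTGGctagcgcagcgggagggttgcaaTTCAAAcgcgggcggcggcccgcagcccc
Isg15: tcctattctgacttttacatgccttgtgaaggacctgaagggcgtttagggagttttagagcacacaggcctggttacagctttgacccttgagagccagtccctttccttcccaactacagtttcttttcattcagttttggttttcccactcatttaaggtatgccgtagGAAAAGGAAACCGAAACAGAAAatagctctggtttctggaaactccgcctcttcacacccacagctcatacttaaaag
Bst2: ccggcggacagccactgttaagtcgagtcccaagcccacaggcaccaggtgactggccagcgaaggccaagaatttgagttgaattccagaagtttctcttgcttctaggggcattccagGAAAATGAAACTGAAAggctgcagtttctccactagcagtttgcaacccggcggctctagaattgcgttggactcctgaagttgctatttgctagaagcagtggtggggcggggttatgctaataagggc

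TTTGAA or TTCAAA occurred in a promoter of 20 of 46 G2/M list genes (43.5%) and 6 of 34 S phase list genes (17.6%). The share over all 32851 promoters was 15.99%. CCAAT or ATTGG occurred for 35 of 46 G2/M genes (76.1%), 23 of 34 S phase genes (67.6%) and 33.8% of all promoters. The interferon pair occurred for 6 of 13 interferon list genes (46.2%), 1 of 46 G2/M genes (2.17%) and 2.98% of all promoters. A list gene was counted if any of its promoters matched, whereas the share over all was taken per promoter. Genes with several promoters had more chances to match, so the list shares and the share over all are not on equal terms. A match is a run of letters in this window and no evidence of binding, and 308 of 408 list genes had a promoter in the table.

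Cycling pre-B cells made up 5.91% (5.48 to 6.35) of the kept 1NMPP1 growth plate barcodes and 5.49% (5.04 to 5.97) of the kept vehicle barcodes, a log2 ratio of 0.11 (-0.06 to 0.27). The intervals overlap. Among male-called barcodes the shares were 6.47% and 5.75%, a log2 ratio of 0.17, whereas among female-called barcodes they were 8.44% and 10.99%, a log2 ratio of -0.38 (-0.65 to -0.11). The pooled share therefore did not keep its direction within both called groups. Of kept barcodes, 4242 of 11634 in the 1NMPP1 library and 3216 of 9380 in the vehicle library had neither call. Calling differed between cell types. In the 1NMPP1 library 56.0% of members but 30.6% of Ly6g-positive barcodes were female-called, and in the vehicle library 31.3% and 11.3%. Male-called were 26.6% and 23.0%, and 52.4% and 48.2%. The part of calling in these shares was not tested. Of all B-lineage barcodes, the cycling cells were 30.2% (687 of 2272) in the 1NMPP1 library and 26.7% (515 of 1931) in the vehicle library, a log2 ratio of 0.18 (0.01 to 0.35). Within male-called barcodes this share was 33.1% and 28.1%, and within female-called barcodes 28.2% and 28.6%, so the share was higher in the 1NMPP1 library among male-called barcodes and close to equal among female-called ones, and the difference between the sexes was not tested.

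Other B-lineage barcodes give the scale. Non-cycling barcodes, which meet the same rule but have 0 UMIs of Mki67 and Top2a, were 9.43% of kept 1NMPP1 barcodes and 11.3% of kept vehicle barcodes, and Dntt-positive barcodes were 2.71% and 2.31%. Of the Dntt-positive barcodes, 39.0% and 41.0% had at least 2 UMIs of Mki67 and Top2a. Cycling pre-B cells were thus more numerous than Dntt-positive cells in both libraries and less numerous than non-cycling B-lineage barcodes. The non-cycling set also holds 139 of 141 Ms4a1- and Ighd-positive barcodes of the 1NMPP1 library and all 145 of the vehicle library, so those sets overlap.

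The members lay between Dntt-positive and non-cycling barcodes in their surrogate light chain. Igll1 stood at 156 CPM in 1NMPP1 members and 164 CPM in vehicle members, against 18.1 and 16.6 CPM in non-cycling barcodes and 1089 and 1037 CPM in Dntt-positive barcodes, 1NMPP1 before vehicle in each pair. Vpreb1, its partner, had 162 and 172 CPM in members, 29.4 and 29.1 CPM in non-cycling barcodes and 1742 and 1602 CPM in Dntt-positive barcodes. The order of the 3 stages was the same for both genes and in both libraries, with no overlap of intervals. In Ms4a1- and Ighd-positive barcodes, the most mature B cells here, Igll1 stood at 3.39 and 8.08 CPM, on 3 and 6 UMIs.

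Genes of small pre-B and later cells were lower in members than in non-cycling barcodes. Rag1 stood at 53.8 CPM in 1NMPP1 members and 53.4 CPM in vehicle members, against 370 and 315 CPM in non-cycling barcodes and 250 and 204 CPM in Dntt-positive barcodes. Rag2, the other recombinase subunit, was at 23.0 and 21.5 CPM in members and at 25.7 and 24.1 CPM in non-cycling barcodes, so Rag1 and Rag2 did not share this difference. Il2ra (CD25), a surface marker of small pre-B cells, had 45.2 and 48.8 CPM in members and 187 and 222 CPM in non-cycling barcodes. Cd74, the invariant chain of MHC class II, had 321 and 293 CPM in members, 1597 and 1622 CPM in non-cycling barcodes and 4766 and 4474 CPM in Ms4a1- and Ighd-positive barcodes. Id3, an inhibitor of E proteins, went the other way, with 157 and 151 CPM in members and 77.7 and 75.9 CPM in non-cycling barcodes.

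**Figure D1:**
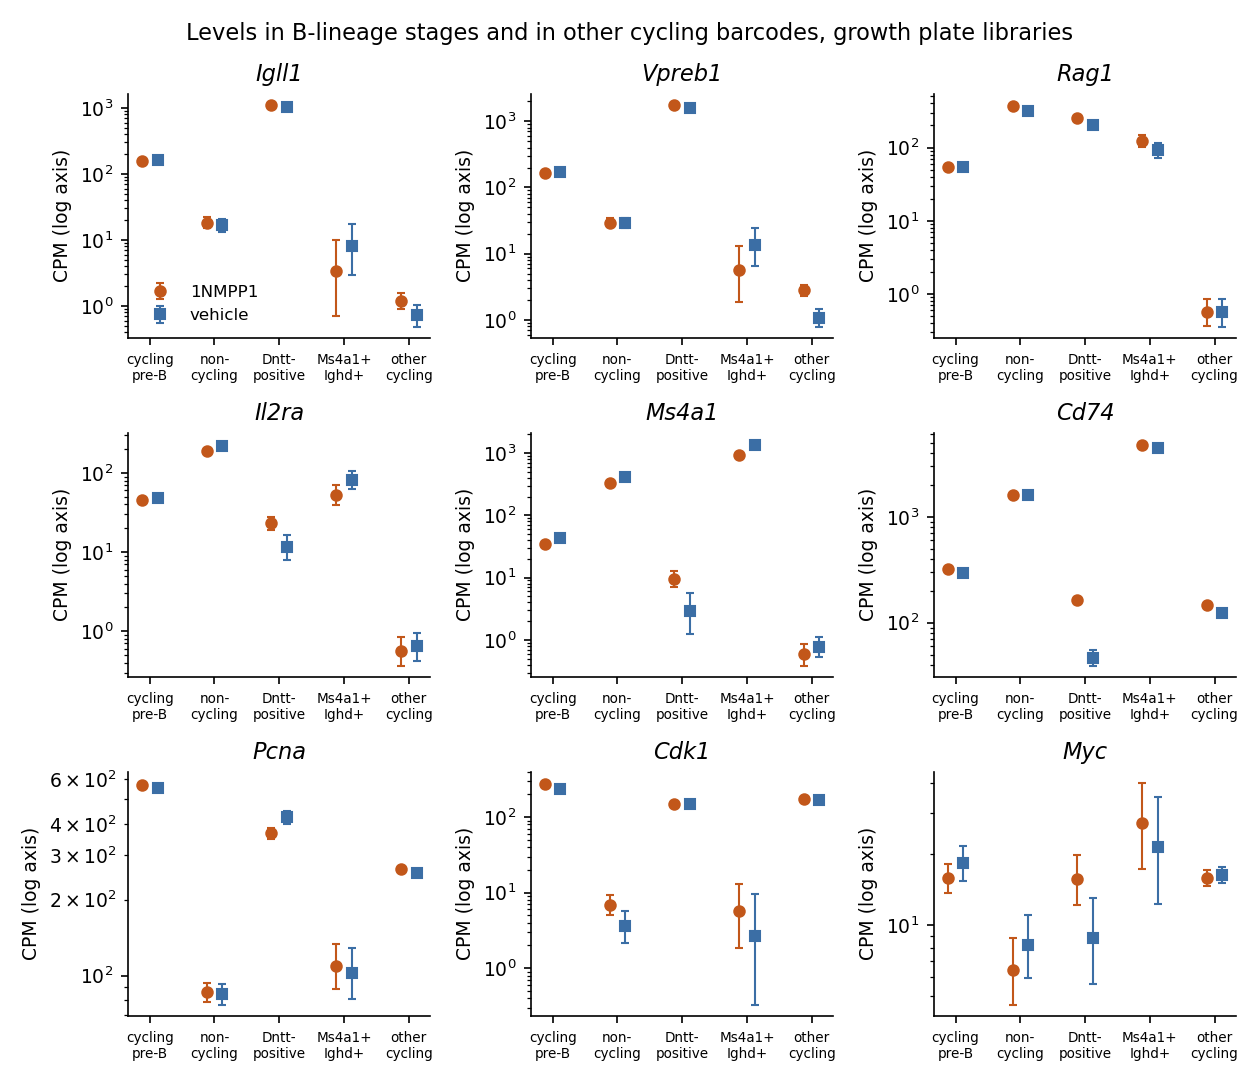
Level of 9 genes (vertical log axis, CPM) in cycling pre-B cells, non-cycling B-lineage barcodes, Dntt-positive barcodes, Ms4a1- and Ighd-positive barcodes and other cycling barcodes (horizontal axis). Circles are the 1NMPP1 library and squares the vehicle library, with exact 95% Poisson intervals of counting error. Igll1 and Vpreb1 of the members lie between the Dntt-positive and the non-cycling barcodes, Rag1 lies below both, and the 2 libraries run close together in the members.

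Members and non-cycling barcodes were separated by their cycle transcripts, so the following is a description of that choice. Of all 9859 genes with at least 100 UMIs in members, 22.2% were more than 1.5-fold higher and 17.8% more than 1.5-fold lower in members than in non-cycling barcodes of both libraries. List genes needed only 20 UMIs, so some lie outside these 9859 genes, and their counts are not on equal terms with those shares. All 45 S phase genes and all 53 G2/M genes were more than 1.5-fold higher in both libraries. So were 14 of 14 replication histones, 18 of 20 nucleotide synthesis genes and 16 of 18 ribosome biogenesis genes. More than 1.5-fold lower in both were 17 of 19 light chain and maturation genes, 12 of 16 genes of pre-B receptor signalling and 9 of 17 interferon response genes. Outside the cycle lists, the genes with the highest ratios were Esco2, E2f7, Kif4, Aunip, Sapcd2, Pclaf, Pbk, Kif14, Ncapg2 and Kif18b. Esco2, a cohesin acetyltransferase, had 123 CPM in 1NMPP1 members and 117 CPM in vehicle members, and under 1 CPM in the non-cycling barcodes of either library. Among the lowest ratios were those of Reln, BE692007, Tmem163, Agbl1, Bank1, Cacna1e, Kdm5b, Snx29 and Inpp4b. Reln, a secreted matrix protein, had 18.9 and 20.8 CPM in members against 394 and 351 CPM in non-cycling barcodes. Bank1, a B cell adaptor protein, had 40.0 and 33.8 CPM in members and 399 and 461 CPM in non-cycling barcodes.

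Within the members, S phase and G2/M content varied widely from cell to cell. After thinning to 5000 UMIs, which kept 619 1NMPP1 and 452 vehicle members, the 45 S phase genes held a median of 0.66% and 0.68% of a cell's UMIs, and the 51 G2/M genes other than Mki67 and Top2a held 1.68% and 1.55%. The S phase share exceeded the G2/M share in 22.9% (19.7 to 26.5) of 1NMPP1 members and 25.2% (21.3 to 29.5) of vehicle members. These intervals overlap. Other cycling barcodes of the growth plate, which have no Ebf1 UMI, held medians of 0.28% and 0.30% for S phase and 0.88% and 0.88% for G2/M. The median member thus devoted a larger share of its transcripts to both lists than the median dividing cell of another kind. Both sets were chosen by at least 2 UMIs of Mki67 and Top2a at full depth. Other cycling barcodes were deeper there, with medians of 22839 and 20636 UMIs, and the part of depth in this difference was not tested. Dntt-positive cycling barcodes held 0.56% and 0.68% for S phase, the vehicle value being equal to that of members, and 1.14% and 1.22% for G2/M, between members and other cycling barcodes.

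**Figure D2:**
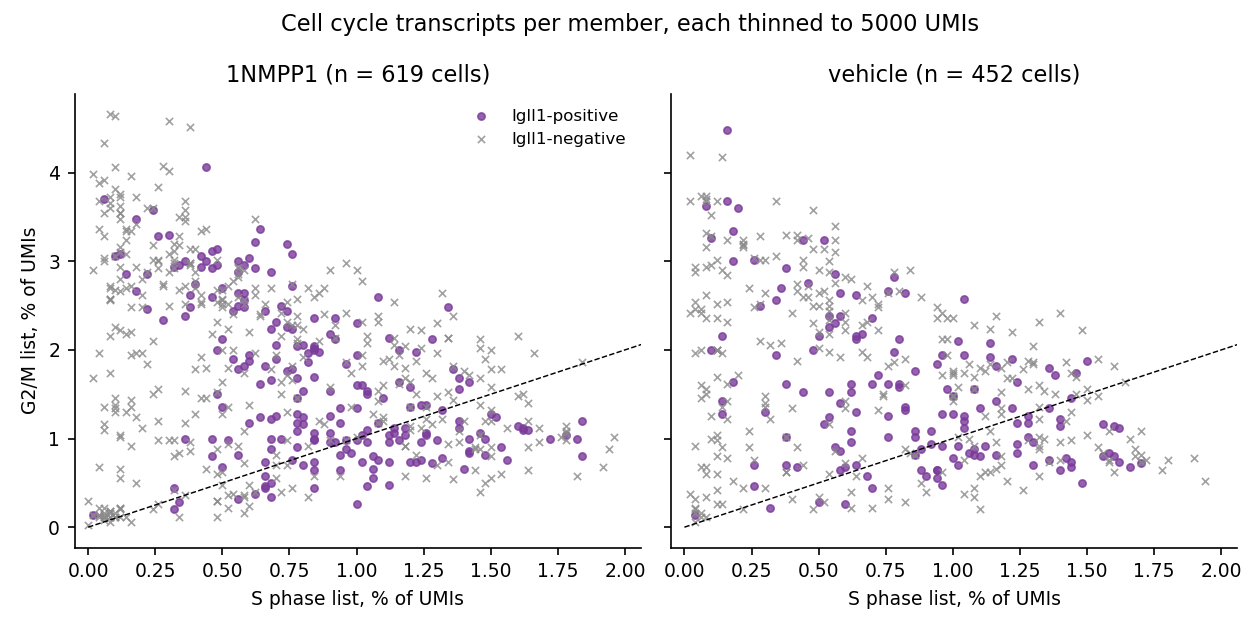
Each point is 1 member thinned to 5000 UMIs, placed by the percent of its UMIs from the S phase list (horizontal) and from the G2/M list without Mki67 and Top2a (vertical), for the 1NMPP1 library (left, 619 cells) and the vehicle library (right, 452 cells). Filled circles have an Igll1 UMI and crosses have none, and the dashed line marks equal shares. Both libraries cover the same arc, from cells high in S phase transcripts to cells high in G2/M transcripts.

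At least 1 Igll1 UMI was present in 223 of the 1NMPP1 members (32.5%, 29.0 to 36.1) and 156 of the vehicle members (30.3%, 26.3 to 34.5). These cells were deeper, with a median of 20229 and 17138.5 UMIs against 11759 and 10124 UMIs in members without Igll1. At an equal 5000 UMIs, Igll1 was found in 20.7% (17.6 to 24.1) of 1NMPP1 members and 21.9% (18.2 to 26.0) of vehicle members, with 0.94% and 0.53% in Ly6g-positive barcodes. Vpreb1 was detected in 66.8% of 1NMPP1 and 70.5% of vehicle members with Igll1, and in 12.5% and 10.9% of those without. Igll1-positive members had a median S phase content of 0.82% in both libraries, against 0.50% and 0.60% in Igll1-negative members. Their G2/M content was 1.38% and 1.24%, against 1.77% and 1.68%. Members with an Igll1 UMI thus had higher S phase and lower G2/M medians in both libraries, but they were split at full depth, and the part of depth in that split was not tested.

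Of the 9859 genes, 5.18% were over 1.5-fold higher and 9.24% over 1.5-fold lower in Igll1-positive than in Igll1-negative members of both libraries. These counts rest on cells chosen by 1 gene and are not tests. Vpreb2, a second copy of VpreB, had 38.1 CPM in Igll1-positive and 0.31 CPM in Igll1-negative 1NMPP1 members, and 54.8 and 0.24 CPM in vehicle members. Tox, a regulator of lymphocyte development, had 35.5 and 2.19 CPM in 1NMPP1 members and 59.0 and 6.39 CPM in vehicle members, again Igll1-positive cells before Igll1-negative ones. Nrgn, a calmodulin-binding protein, had 199 and 37.9 CPM in 1NMPP1 members and 249 and 37.1 CPM in vehicle members. On the other side stood Igha, with 2.26 and 639 CPM in 1NMPP1 members and 2.80 and 468 CPM in vehicle members. Prss34, a protease of basophils and mast cells, was low in Igll1-positive cells as well, with 1.91 and 277 CPM in 1NMPP1 members and 0.56 and 140 CPM in vehicle members. Both lay in a few cells: the 5 highest members held 99.2% of Igha UMIs in the 1NMPP1 library and 99.4% in the vehicle library, and 98.5% and 99.8% of Prss34 UMIs.

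Between the libraries, cycling pre-B cells were alike over most genes. Of the 9859 genes with at least 100 UMIs, 3.3% were more than 1.5-fold higher and 2.86% more than 1.5-fold lower in 1NMPP1 members than in vehicle members, with a median log2 ratio of -0.05. With at least 20 UMIs, the limit used for the lists below, these shares were 6.89% and 6.93% of 12995 genes.

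The parts of the pre-B receptor differed little. Of its 7 measured genes, 3 were higher and 4 lower in 1NMPP1 members, none past 1.5-fold, with a median of -0.07. Igll1 had a log2 ratio of -0.07 (-0.18 to 0.03) and Vpreb1 one of -0.08 (-0.19 to 0.02), both with intervals that include 0. Ighm, the heavy chain, stood at 2074 CPM in 1NMPP1 members and 2052 CPM in vehicle members. Vpreb2 was the lowest of the group, with 18.2 CPM in 1NMPP1 members and 25.2 CPM in vehicle members, a log2 ratio of -0.47 (-0.76 to -0.19).

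Downstream of the receptor, 4 of 16 signalling genes were higher and 12 lower, none past 1.5-fold, with a median of -0.13. Syk, the kinase that binds the receptor's cytoplasmic tails, had 615 CPM in 1NMPP1 members and 617 CPM in vehicle members. Blnk, the adaptor it phosphorylates, had 610 and 708 CPM, a log2 ratio of -0.21 (-0.27 to -0.16), and the Src family kinase Blk had 242 and 280 CPM, -0.21 (-0.29 to -0.13). These differences were small but beyond counting error.

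The interleukin 7 receptor axis had 7 of 16 genes higher and 9 lower, with a median of -0.01. Il7r, the receptor chain itself, stood at 307 CPM in 1NMPP1 members and 319 CPM in vehicle members, a log2 ratio of -0.06 (-0.13 to 0.02). At 5000 UMIs it was detected in 69.8% (66.0 to 73.4) and 75.9% (71.7 to 79.8) of members, against 1.62% and 0.77% of Ly6g-positive barcodes. Socs2, a target of STAT5, had 31.0 and 34.6 CPM. The 1 gene past 1.5-fold was Socs3, an inhibitor of cytokine signalling, with 4.12 and 13.2 CPM and a log2 ratio of -1.67, but 5 members held 58.0% of its UMIs in the 1NMPP1 library and 83.5% in the vehicle library. Without members that had more than 1% of UMIs from marker genes of another cell type, Socs3 stood at 0.49, a setting chosen after seeing the data.

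None of the 24 B-lineage transcription factors passed 1.5-fold, with 10 higher, 14 lower and a median of -0.07. Bach2, a repressor that holds back plasma cell fate, had 3804 CPM in 1NMPP1 members and 4401 CPM in vehicle members, a log2 ratio of -0.21 (-0.23 to -0.19). Lef1, a factor of early B cells, had 304 and 363 CPM, -0.26 (-0.33 to -0.19). Klf2, which is associated with quiescence, had 417 and 333 CPM, 0.33 (0.26 to 0.40), but its ratio was 1.04 among male-called and -0.45 among female-called members. Irf4, which promotes light chain rearrangement, had 324 and 299 CPM, 0.11 (0.04 to 0.19).

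Recombination and end joining genes gave 3 higher and 9 lower of 12, none past 1.5-fold, with a median of -0.13. Rag1 had a log2 ratio of 0.01 (-0.17 to 0.19) and Rag2 one of 0.09 (-0.19 to 0.38), so the data cannot tell either from no difference. Prkdc, the kinase of end joining, was the lowest of the list, with 45.0 CPM in 1NMPP1 members and 61.8 CPM in vehicle members, -0.46 (-0.64 to -0.28). Hmgb1, a DNA-bending protein that assists the recombinase, was the highest at 3295 and 2974 CPM, 0.15 (0.12 to 0.17).

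Light chain and maturation genes split into 11 higher and 8 lower of 19, with a median of 0.06. Igkc, the κ constant region, and Iglc1, a λ constant region, were the 2 past 1.5-fold, and single cells held a large share of the UMIs of each. Igkc stood at 1678 CPM in 1NMPP1 members and 923 CPM in vehicle members, a log2 ratio of 0.86, but 1 of the 1NMPP1 members held 6238 of 20368 UMIs (30.6%), and the median per member was 974 and 834 CPM. Requiring at least 2 of Pax5, Vpreb3 and Cecr2 brought it to 0.05, and leaving out members with transcripts of other cell types to 0.09. Requiring at least 4 UMIs of Mki67 and Top2a brought it to 0.32. By contrast, it was 1.05 among male-called and 0.93 among female-called members and past 1.5-fold in 12 of 15 settings. Among those settings, the limits of 20 and 200 UMIs cannot change a gene's ratio. At 5000 UMIs, Igkc was detected in 87.9% of 1NMPP1 and 86.3% of vehicle members. In Ly6g-positive barcodes it was detected in 15.2% in the 1NMPP1 library and 6.65% in the vehicle library. The part of such background in the Igkc ratio was not tested. For Iglc1, 1 member held 91.5% of the UMIs in the 1NMPP1 library and another held 90.2% in the vehicle library. The log2 ratio of Iglc1, 1.27, stood at -4.93 among male-called and 6.08 among female-called members. Ms4a1 (CD20), a marker of later B cells, had 34.2 and 44.0 CPM, -0.36 (-0.57 to -0.15), and H2-Eb1, a chain of MHC class II, had 72.8 and 54.0 CPM, 0.43 (0.26 to 0.60).

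The cell cycle lists differed little between the libraries. S phase genes were higher for 13 and lower for 32 of 45, with a median of -0.05, and G2/M genes higher for 31 and lower for 22 of 53, with a median of 0.05. None of either list passed 1.5-fold. Pola1, a subunit of the DNA polymerase that primes replication, was the lowest S phase gene, with 294 CPM in 1NMPP1 members and 361 CPM in vehicle members, -0.29 (-0.37 to -0.22). Ckap2, a spindle protein, was the highest G2/M gene, with 71.7 and 60.2 CPM, 0.25 (0.09 to 0.42). Cdk1 had 276 and 235 CPM, 0.23 (0.15 to 0.31), and Ube2c, whose promoter is shown above beside that of Cdk1, had 636 and 629 CPM, 0.02 (-0.03 to 0.07). Replication histones had 10 of 14 genes higher, with a median of 0.13, and both genes past 1.5-fold, Hist1h2ap and Hist1h2ae, belong to the H2A family described below. Hist1h2ae had 824 CPM in 1NMPP1 members and 326 CPM in vehicle members.

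Among regulators of G1, 10 of 22 were higher and 12 lower, with a median of -0.04. Ccnd3, the D-type cyclin on which pre-B cell division depends, had 519 CPM in 1NMPP1 members and 537 CPM in vehicle members, -0.05 (-0.11 to 0.01). Ccnd2, another D-type cyclin, was 1 of 2 genes past 1.5-fold, with 59.6 and 93.6 CPM, -0.65 (-0.80 to -0.50). Among male-called members its log2 ratio was -0.57 and among female-called members 0.01, so it did not pass 1.5-fold within either sex. Mycn, a Myc family factor, was the other, with 3.54 and 1.67 CPM, 1.05 (0.17 to 2.11), on 43 and 13 UMIs. The cycle inhibitor Cdkn2c (p18) had 85.5 and 63.3 CPM, 0.43 (0.28 to 0.59), and Cdkn1b (p27) had 86.8 and 75.6 CPM, 0.20 (0.05 to 0.35).

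Growth-related metabolism leaned lower in 1NMPP1 members. Of 18 ribosome biogenesis genes 17 were lower and 1 higher, with a median of -0.23, and of 20 nucleotide synthesis genes 16 were lower and 4 higher, with a median of -0.18. Over all genes with at least 20 UMIs, 59.1% were lower and the median was -0.05. The nucleolar proteins Npm1, at 1262 and 1462 CPM, -0.21 (-0.25 to -0.18), and Nolc1, at 86.9 and 117 CPM, -0.43 (-0.56 to -0.30), were examples. Srm, spermidine synthase, was the only ribosome list gene past 1.5-fold, at 46.5 and 75.6 CPM, -0.70 (-0.87 to -0.53), but it stood at -0.13 after thinning to 5000 UMIs and at -0.50 with at least 2 of Pax5, Vpreb3 and Cecr2. Gart, an enzyme of purine synthesis, had 51.3 and 64.2 CPM, -0.32 (-0.50 to -0.15). The ribosome list's median was -0.25 among male-called and -0.09 among female-called members, and that of the nucleotide list -0.21 and -0.01. After thinning to 5000 UMIs the medians were -0.19 for the ribosome list and -0.06 for the nucleotide list. Ribosome and nucleotide genes were also higher in cycling than in non-cycling barcodes, and the part of cycle position in these medians was not tested.

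Glycolysis, apoptosis and homing genes had medians of -0.03, -0.01 and 0.07, with 6 of 15, 7 of 17 and 8 of 14 genes higher. Ldha had 254 CPM in 1NMPP1 members and 311 CPM in vehicle members, -0.29 (-0.37 to -0.22). Cxcr4, the receptor that keeps B-cell precursors in the marrow, had 321 and 337 CPM, -0.07 (-0.14 to 0.00). Ptk2, a focal adhesion kinase, was past 1.5-fold in the lower direction, with 7.83 and 16.7 CPM, -1.09 (-1.49 to -0.70), with -1.17 among male-called and -0.89 among female-called members. On the other side Ackr3, a scavenger receptor of Cxcl12, rested on 27 and 10 UMIs, 0.75 (-0.30 to 2.01), and stood at -1.53 after removal of barcodes with high doublet scores.

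**Figure D3:**
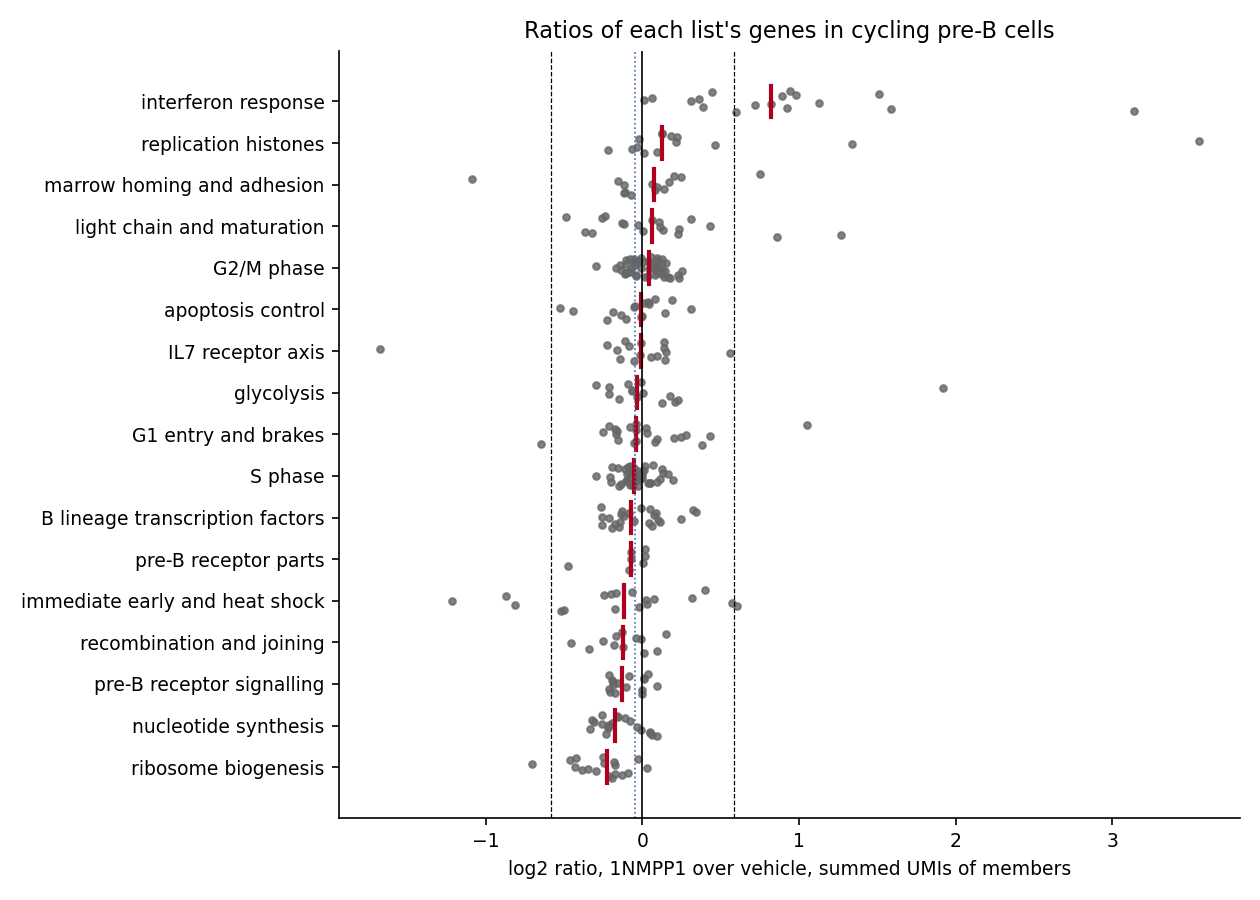
Log2 ratio of 1NMPP1 over vehicle (horizontal axis, summed UMIs of members) for each gene with at least 20 UMIs in 17 gene lists (rows), points being genes, the vertical bar of each row its median, the dotted line the median of all genes with at least 100 UMIs (-0.05) and the dashed lines 1.5-fold. The interferon response list stands at a median of 0.82 with every gene above 0, and the ribosome biogenesis list at -0.23 is the lowest.

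The interferon response list had the highest median of the 17 lists. All 17 measured genes were higher in 1NMPP1 members and 11 of them were past 1.5-fold, with a median log2 ratio of 0.82, against 40.9% of all genes higher and 6.89% past 1.5-fold. Their sum was 1392 CPM in 1NMPP1 members and 991 CPM in vehicle members, a log2 ratio of 0.49 (0.45 to 0.53). Thinned to 5000 UMIs per cell, the list's median was 0.49, over the 12 genes that still had at least 20 UMIs, 11 of them higher. Most of these genes were at low levels, and interferons induce them in nearly all cell types.

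Ly6e, a membrane protein, held a large part of that sum and was nearly equal, with 516 CPM in 1NMPP1 members and 495 CPM in vehicle members, 0.06 (0.00 to 0.12). Ifi27l2a had 616 CPM in 1NMPP1 members and 321 CPM in vehicle members, 0.94 (0.88 to 1.01), and was detected in 83.0% and 62.5% of members before thinning. Isg15 had 12.8 and 4.23 CPM, 1.59 (1.05 to 2.19), and 2.97 after thinning. Of Isg15 UMIs, 5 members held 48.7% in the 1NMPP1 library and 54.5% in the vehicle library, against 6.45% and 13.9% of Ifi27l2a UMIs. Ifitm3, a membrane protein that blocks virus entry, had 47.4 and 25.5 CPM, 0.89 (0.66 to 1.13). These 3 genes were higher in the 1NMPP1 library, with intervals of the ratio that lie above 0.

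Xaf1, a proapoptotic factor, had 14.3 and 8.07 CPM, 0.82 (0.40 to 1.27). Irf7, the transcription factor that amplifies the response, had 4.70 and 2.44 CPM, 0.92 (0.18 to 1.78), and Zbp1, a sensor of nucleic acids, 7.41 and 3.72 CPM, 0.98 (0.38 to 1.65). Rtp4 had 4.53 and 1.54 CPM, 1.51 (0.64 to 2.60). Ifit3 rested on 20 UMIs in 1NMPP1 members, 12 of them in 1 member, and 1 UMI in vehicle members, with an interval of 1.04 to 9.06. Ifit2, at 0.60 (0.02 to 1.22), was below 1.5-fold in 8 of 14 alternative settings, and Oasl2, at 0.72, was below it in 3 of 14. Among these settings, the limit of 20 UMIs cannot change a gene's ratio. Stat2, which carries the interferon signal to the nucleus, was close to equal, with 18.4 and 18.2 CPM, 0.01 (-0.30 to 0.33). Rsad2 (viperin) had 4.86 and 2.18 CPM, 1.13 (0.36 to 2.03), but -0.15 once members with more than 1% neutrophil transcripts were left out.

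The list differed by the sex of the cells, which was not tested. Among male-called members, 183 in the 1NMPP1 library and 270 in the vehicle library, all 13 measured genes were higher, the median was 1.07 and the sum was 1805 and 922 CPM, a log2 ratio of 0.97 (0.91 to 1.03). Among the 385 and 161 female-called members, 7 of 15 genes were higher, the median was -0.07 and the sum was 1216 and 1177 CPM, 0.05 (-0.02 to 0.11). Ifi27l2a had 932 and 284 CPM in male-called members but 503 and 440 CPM in female-called members. Xaf1 had 22.6 and 6.43 CPM in male-called members, and 10.5 and 10.1 CPM in female-called members. Isg15 and Ifitm3 were higher in 1NMPP1 members of both sexes, at 2.26 and 0.63 in male-called and 1.06 and 0.76 in female-called cells. Within the 1NMPP1 library the sum was higher in male-called than in female-called members, a log2 ratio of 0.57, and within the vehicle library it was lower, -0.35. With the number of animals behind each sex unknown, 1 animal and a treatment cannot be told apart here.

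**Figure D4:**
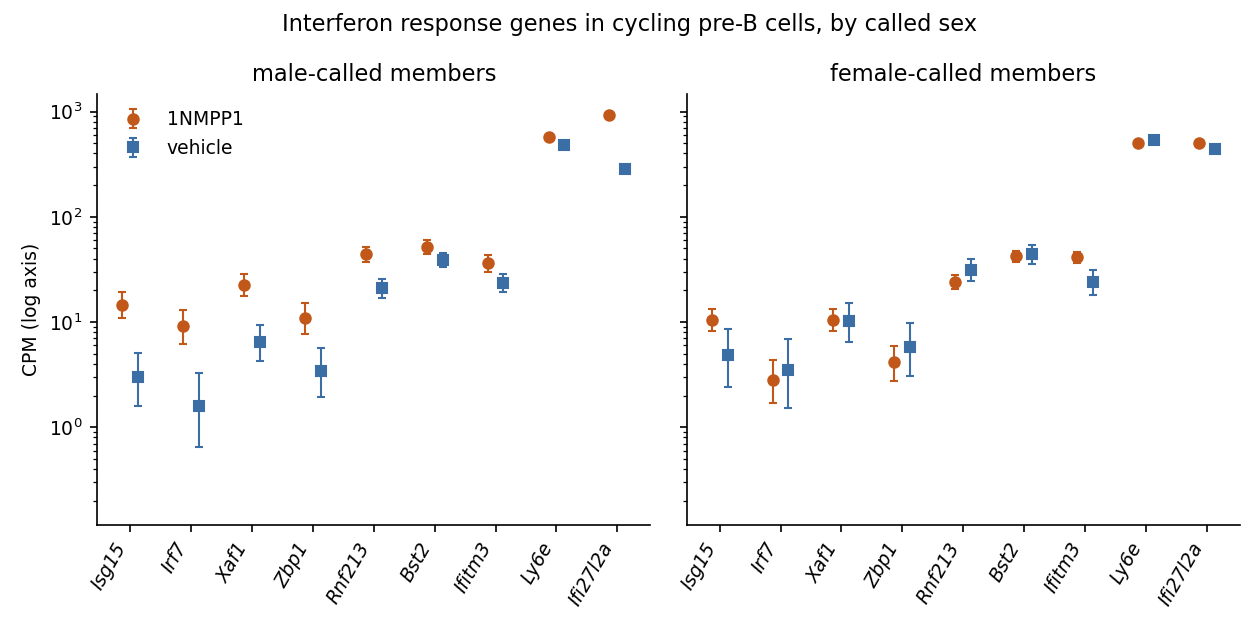
Levels of 9 interferon response genes (vertical log axis, CPM) in male-called members (left) and female-called members (right). Circles are the 1NMPP1 library and squares the vehicle library, with exact 95% Poisson intervals of counting error. In male-called members all 9 genes are higher in the 1NMPP1 library, whereas in female-called members Isg15, Ifitm3 and Ifi27l2a are higher and the others lie close together or lower.

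The same list in other barcodes of the growth plate showed the same split in part. In non-cycling B-lineage barcodes 16 of 17 genes were higher with a median of 0.55, which was 0.78 in male-called and 0.06 in female-called barcodes, with medians over all genes of -0.02, 0.01 and -0.02. In Ly6g-positive barcodes 19 of 19 were higher with a median of 0.64, which was 1.00 and 0.38, with medians over all genes of 0.06, -0.0027 and 0.15. The list was thus higher in other growth plate barcodes of the 1NMPP1 library too. The Isg15 promoter, printed above, holds 3 matches to the interferon pair and that of Bst2 holds 2, and Bst2 itself had 52.1 CPM in 1NMPP1 members and 40.5 CPM in vehicle members, 0.36 (0.17 to 0.56).

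Immediate early and heat shock genes had 7 of 18 higher, with a median of -0.12. Jund, an AP-1 subunit, had 851 CPM in 1NMPP1 members and 560 CPM in vehicle members, 0.60 (0.55 to 0.66), and 0.22 among female-called members. Past 1.5-fold in the lower direction were Atf3, Egr1 and Hspa1a. The stress factor Atf3 had 14.0 and 32.6 CPM, -1.22 (-1.51 to -0.93), with 42.9% and 77.6% of its UMIs in 5 members, and turned to 0.72 without members that had over 1% of UMIs from another cell type. Egr1 had 34.5 and 60.6 CPM, -0.81 (-1.01 to -0.62), and -0.05 without those members. Hspa1a, a heat shock protein, had 2.80 and 5.13 CPM, -0.87 (-1.58 to -0.18), and stood at 1.76 among male-called members.

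Marker genes of other cell types were found in members and differed between the libraries. Neutrophil markers summed to 17674 CPM in 1NMPP1 members and 7014 CPM in vehicle members, with 9 of 10 detected and Ly6g at 0 by the rule. In 1NMPP1 members they took from 0.11% to 37.7% of a cell's UMIs, with a median of 0.36%, and in vehicle members from 0% to 32.4%, with a median of 0.27%. They exceeded 1% in 59 and 26 members. Granulocyte progenitor markers summed to 2481 and 1208 CPM with 6 of 6 detected, monocyte and macrophage markers to 492 and 242 CPM with Csf1r at 0, and erythroid markers to 1121 and 1240 CPM. Chondrocyte and bone markers summed to 712 CPM in 1NMPP1 members and 2124 CPM in vehicle members, with 4 and 8 members above 1%. Plasma cell markers summed to 563 and 473 CPM, those of plasmacytoid dendritic cells to 410 and 460 CPM and those of T and NK cells to 79.9 and 60.2 CPM, 1NMPP1 before vehicle. B-lineage markers summed to 8112 and 8835 CPM, cycling markers to 3979 and 3971 CPM and pro-B and progenitor markers, with Dntt at 0, to 437 and 460 CPM. What these transcripts contribute to the differences between the libraries was not tested beyond the settings without such members.

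The highest ratios between libraries were those of Hist1h2ap, Gstp1, Hist1h2ao, Hist2h2aa1, Hist1h4m, Ccl4, Eno1, Hmga1, Camp and Hist1h4h. Hist1h2ap, a replication histone, had 1322 CPM in 1NMPP1 members and 113 CPM in vehicle members, a log2 ratio of 3.55 (3.45 to 3.65). Its 3′ end sequence is shared in full with Hist1h2ao, and that of Hist2h2aa1 with Gm20634, so reads of such copies may be split or dropped in counting and these genes are uncertain. All H2A histone genes together had 2764 and 911 CPM, 1.60 (1.56 to 1.64), and all H4 genes 487 and 365 CPM, 0.42 (0.35 to 0.48). Likewise Eno1, a glycolytic enzyme at 76.7 and 20.2 CPM, came to 1.35 rather than 1.92 when summed with Eno1b. Of its 3′ end windows, 36.8% are shared with Eno1b. Hmga1, an architectural chromatin protein at 47.8 and 12.9 CPM, came to 1.00 rather than 1.88 with Hmga1b. Alone, Eno1b was lower, at -1.14 in members, -1.59 in non-cycling and -1.04 in Ly6g-positive barcodes. Hmga1b alone stood at -0.72, -0.61 and -0.51, with intervals that include 0 outside the members. In the ganglion Eno1b stood at 0.41 and Hmga1b at 0.16.

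Of these 10 genes, all 8 that could be measured in non-cycling B-lineage barcodes were higher there too, and 9 of 10 in Ly6g-positive barcodes, against 3 of 10 in the dorsal root ganglion. Hist1h2ap had a log2 ratio of 3.39 in Ly6g-positive barcodes and -0.36 in the ganglion, Gstp1 one of 3.72 in Ly6g-positive barcodes and Eno1 one of 2.15. Past 1.5-fold were 7 of the 8 in non-cycling barcodes, all but Ccl4, and 8 of 10 in Ly6g-positive barcodes, all but Ccl4 and Camp. Ccl4 stood at 0.13 in non-cycling, 0.37 in Ly6g-positive and 0.92 in ganglion barcodes. The feature tables of the libraries were not identical, since that of the vehicle growth plate holds an added sequence that the 1NMPP1 one lacks, and whether reads were counted alike in the 2 libraries was not tested. Camp, an antimicrobial peptide of neutrophils, had 2602 CPM in 1NMPP1 members and 718 CPM in vehicle members. Its log2 ratio was 0.70 (0.62 to 0.78) in non-cycling B-lineage barcodes but -0.19 in Ly6g-positive barcodes. In members it was below 1.5-fold, at 0.56, without those above 1% neutrophil transcripts. Of Ccl4, a chemokine at 44.2 and 11.4 CPM, 5 members held 72.8% and 62.9% of the UMIs, and its log2 ratio ranged from 0.76 to 3.97 over the alternatives. Gstp1, a glutathione transferase at 22.5 and 2.69 CPM, ranged from 2.75 to 4.32. It shares 37.3% of its 3′ end windows with Gstp2, so it is uncertain in the same way, and summed with Gstp2 it came to 3.06 rather than 3.03.

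The lowest ratios were those of Mgp, Col27a1, Pou2f3, Auts2, Chst11, Ppa1, Col2a1, Ddah1, Pde1c and Anks1b. Col2a1, the main collagen of cartilage, had 514 CPM in 1NMPP1 members and 1546 CPM in vehicle members, -1.59 (-1.63 to -1.54), and Mgp, which inhibits calcification of cartilage, 29.6 and 197 CPM, -2.74 (-2.91 to -2.57). Of Col2a1, 5 members held 95.7% of the UMIs in the 1NMPP1 library and 91.2% in the vehicle library. Without members above 1% of UMIs of another cell type, Mgp stood at -0.32, Col27a1 at -0.10, Ppa1 at -0.08, Col2a1 at -0.61 and Chst11 at 0.29. Auts2, at 15.7 and 53.3 CPM, -1.76, stood at -2.70 among male-called and 0.01 among female-called members, and Pou2f3, at 3.13 and 11.1 CPM, -1.82, ranged from -2.48 to -1.02 over the alternatives. Ddah1, which breaks down methylated arginine, at 15.7 and 43.1 CPM, -1.45 (-1.72 to -1.19), and Pde1c, a phosphodiesterase, at 10.96 and 29.5 CPM, -1.43 (-1.75 to -1.11), were past 1.5-fold under each of the 15 alternatives run. All 10 were lower in non-cycling B-lineage barcodes and in Ly6g-positive barcodes as well, and 9 of 10 in the ganglion.

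**Figure D5:**
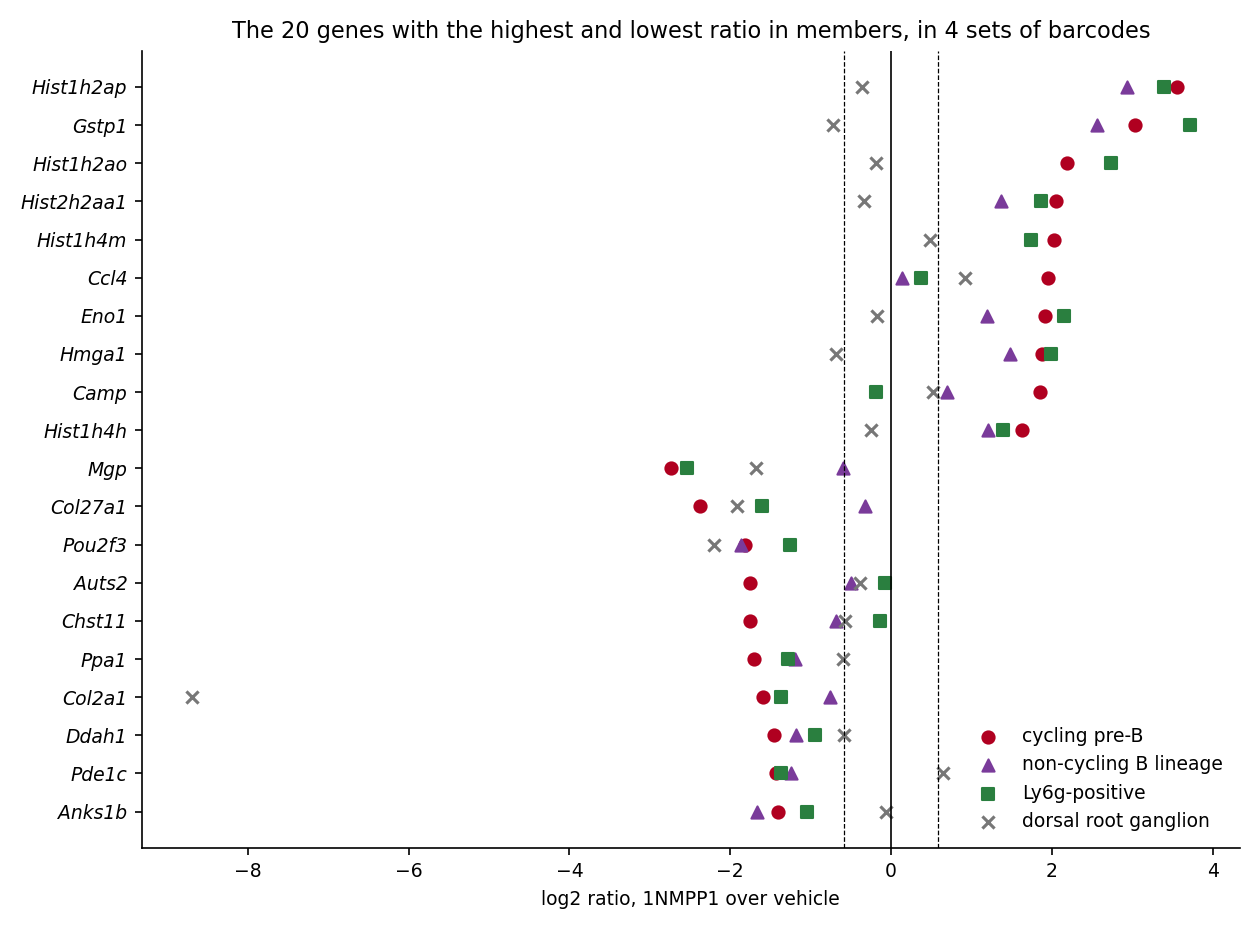
Log2 ratio of 1NMPP1 over vehicle (horizontal axis) of the 20 genes with the highest and lowest ratios in members (rows), in cycling pre-B cells (circles), non-cycling B-lineage barcodes (triangles), Ly6g-positive barcodes (squares) and dorsal root ganglion barcodes (crosses), with dashed lines at 1.5-fold. Most genes stand on the same side in all 3 growth plate sets, and in the ganglion the histone genes and Eno1 lie within 1.5-fold of equal while Gstp1 (-0.73) and Hmga1 (-0.69) lie past it on the lower side.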

How the data were processed

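Single-cell RNA was measured in 4 libraries, from the growth plate and the dorsal root ganglion of 1NMPP1 and vehicle mice. The deposited files hold UMI counts for each gene and barcode, without scaling. The authors ran Cell Ranger, version 7.2.0 per the file headers, and mm10 was the build per the submitters' processing notes. Chemistry and annotation release were not given in the sources used here. Not reported here are the genotype's name, the targeted gene and the values of some other genes.

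Barcodes meeting the rule were found with Python 3.11.15, numpy 2.4.6, pandas 2.3.3, scipy 1.17.1 and scanpy 1.11.5, and figures were drawn with matplotlib 3.10.9. UMIs were summed over the members of a library and scaled to CPM. Before taking log2 ratios, 0.5 UMI was added to both sums. Shares carry Clopper-Pearson, levels Poisson and ratios exact conditional 95% intervals, all of counting error only. A gene past 1.5-fold is called by size alone, since a single library per group allows no test. Scripts were checked on simulated data.

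The members, the 17 gene lists and the 11 marker lists were chosen with earlier results of these data known. List genes needed 20 UMIs over both libraries. Named genes are the 10 highest and 10 lowest ratios among genes with at least 100 UMIs and a UMI in at least 10% of members of the higher library, without mitochondrial, ribosomal, hemoglobin, antigen receptor, predicted and sex-linked genes. The same rule named the 10 highest and 10 lowest of members over non-cycling barcodes, outside the cycle lists. Examples from lists and the genes of Igll1-positive cells were picked after their values were seen. Barcodes were called male with a UMI of 4 Y-linked genes and no Xist, and female with Xist and no Y-linked UMI. Scrublet's own threshold marked 0 growth plate barcodes, so no doublets were removed. As an alternative, the barcodes with the highest scores were removed, 9.44% of the 1NMPP1 and 7.65% of the vehicle barcodes. Sequence windows near annotated 3′ ends were compared between genes.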

Additional observations from a re-analysis of the deposited data

Results flagged for a closer look

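Ratios of 1NMPP1 over vehicle stood on opposite sides of 0 in male-called and female-called members for several results, and the difference between the sexes was not tested. The interferon list's median was 1.07 in male-called and -0.068 in female-called members. Of its genes, Irf7 stood at 2.43 and -0.38, Zbp1 at 1.65 and -0.50, and Oasl2 at 0.86 and -0.068, male-called before female-called. Ccnd2 stood at -0.57 and 0.012, and Auts2 at -2.70 and 0.0083. Ackr3, at -0.73 and 4.10, Hspa1a, at 1.76 and -2.23, and Iglc1, at -4.93 and 6.08, rest on few UMIs or few cells.

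Barcodes that meet the same rule were found outside the growth plate, in the dorsal root ganglion libraries: 35 of 2201 kept 1NMPP1 barcodes (1.59%, 1.11 to 2.20) and 86 of 2938 kept vehicle barcodes (2.93%, 2.35 to 3.60). They were 9.62% and 21.0% of the ganglion barcodes that met the B-lineage part of the rule. The deepest of them held 286573 UMIs in the 1NMPP1 library and 485274 in the vehicle library, against 98928 and 91123 in growth plate members. Whether these ganglion barcodes are B cells was not tested with genes outside the rule.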

How the results depend on the processing

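No paired analysis was possible because each group has 1 library. Within female-called barcodes, the share of kept barcodes came to -0.38, the B-lineage share to -0.022, the ribosome median to -0.086, the interferon median to -0.068, Auts2 to 0.0083, Ccnd2 to 0.012, Zbp1 to -0.50, Irf7 to -0.38 and Oasl2 to -0.068. Within male-called members, Iglc1 stood at -4.93, Ackr3 at -0.73, Hspa1a at 1.76 and the summed granulocyte progenitor markers at -0.39. Ackr3 stood at -1.53 after Scrublet removal, which took 36 of 687 1NMPP1 and 28 of 515 vehicle members. With neutrophil transcripts at most 1%, Rsad2 stood at -0.15 and Hspa1a at 0.016. With transcripts of any other cell type at most 1%, a setting chosen after seeing the data, Chst11 stood at 0.29, Socs3 at 0.49, Atf3 at 0.72 and the granulocyte progenitor sum at -0.85. Genes past 1.5-fold numbered 325 higher and 282 lower. The higher count was 208 with at least 2 of Pax5, Vpreb3 and Cecr2, 184 in male-called members, 215 with neutrophil transcripts at most 1%, 200 without other cell types, 896 from 20 UMIs, 179 from 200 UMIs and 104 after thinning. The lower count was 171 with at least 2 of Pax5, Vpreb3 and Cecr2, 113 without other cell types, 900 from 20 UMIs, 144 from 200 UMIs and 105 after thinning. Depth limits the low interferon genes, several of which rest on under 60 UMIs in 1NMPP1 members.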
